A study of Mus musculus with 6 samples.

Results

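Among the stronger H3K27ac regions of wild-type RAW264.7 cells, 300 had no peak in cells lacking Bmal1 and none in cells lacking Mfp2. They were found by merging the peak lists of the 3 genotypes on chromosomes 1 to 19 wherever peaks shared at least 1 bp, which gave 38990 regions, 27995 of them with a wild-type peak. A region was kept when it held wild-type peaks only and its wild-type tags, scaled to 10 M tags per library, summed to 41 or more. The median peak of the wild-type list had 41.5 tags. Each of the 300 regions consisted of 1 wild-type peak. The regions were thus chosen by their presence in the lists and their wild-type tags, so their absence from the knockouts and their wild-type values are given below as a description, without a test.

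The libraries came from RAW264.7, a mouse line with macrophage-like properties, in 3 states: wild type (titled naive), Bmal1 knockout (Bmal1KO) and Mfp2 knockout (Mfp2KO). All were kept in DMEM with 5% serum, and the labels name no stimulus, time of day or number of clones. The 6 libraries are 3 of H3K27ac ChIP and 3 of input DNA, so that each genotype is seen once, and each peak list was called against its own genotype's input. Without replicates no difference between genotypes could be tested, and a difference between genotypes cannot be told apart from one between libraries or clones. The wild-type and Mfp2KO ChIP libraries each held 15.8 M tags and that of Bmal1KO 12.5 M. By the authors' deposited headers, 38.7% of the wild-type tags lay in peaks, 37.4% of the Bmal1KO tags and 57.2% of the Mfp2KO tags.

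Acetylation of histone H3 at lysine 27 is laid down by the acetyltransferases p300 and CBP and marks promoters and enhancers that are in use. In macrophages, enhancers are opened by lineage factors such as PU.1 together with C/EBP and AP-1 proteins, and the mark at many of them follows the state of the cell. BMAL1 pairs with CLOCK to bind E-box sequences and drives the core circadian loop. MFP2, the product of Hsd17b4, carries out the hydratase and dehydrogenase steps of peroxisomal β-oxidation. Positions below are in mouse build mm39 as the files give them. The regions were not assigned to genes and no sequence is shown, since the gene and promoter tables used here are of another build. For the same reason the macrophage-like label was not checked against marker genes, nor the knockouts against their target genes.

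Loss from both lists was concentrated among the weaker of these regions. Of all wild-type regions, 8928 or 31.9% had no peak in either knockout, and under 41 tags the share was 62.8%. Of the 14267 regions with 41 tags or more the 300 made up 2.10% (95% Wilson interval 1.88 to 2.35). Counted with the 300, 754 of the 14267 or 5.28% lacked a Bmal1KO peak and 1088 or 7.63% an Mfp2KO peak. Bmal1KO alone lacked 454 regions and Mfp2KO alone 788, and the other 12725 of the 14267 were called in every genotype. From 41 to 50 tags, 112 of 983 wild-type regions were in neither knockout, or 11.4% (9.56 to 13.5). Between 82 and 100 tags the count was 30 of 1070, or 2.80% (1.97 to 3.97), and from 100 to 150 tags it was 11 of 2109, or 0.522% (0.292 to 0.932). One region of 1386 lay between 150 and 200 tags, and 6 of 3511 between 200 and 400 tags, a share of 0.171% (0.0783 to 0.372). No region of 400 tags or more was missing from both knockouts among 2732, which allows a share of up to 0.140% by the Wilson interval. The Wilson intervals here and below cover the counting of regions only.

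**Figure D1:**
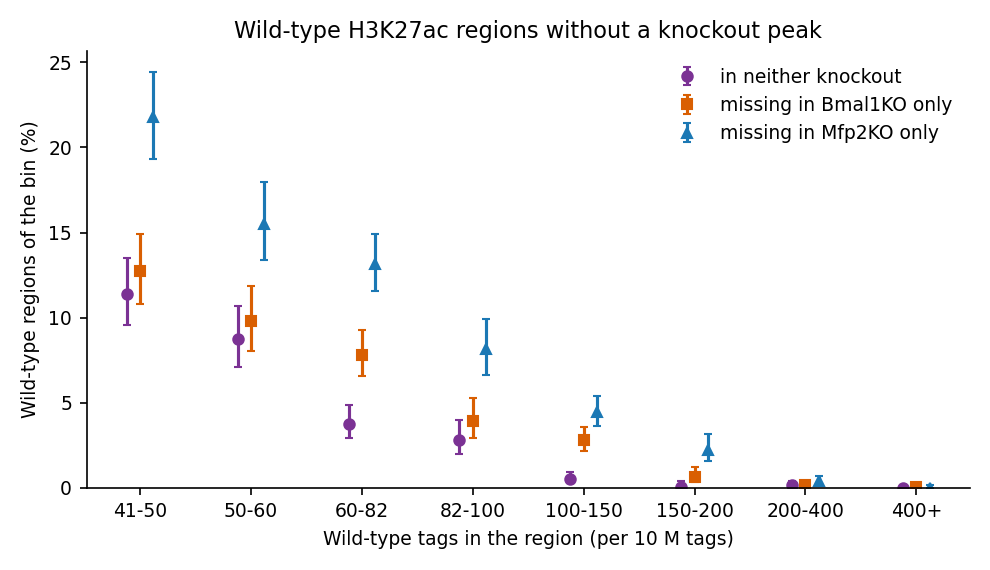
Share of wild-type H3K27ac regions without a knockout peak (%), by wild-type tags per 10 M tags. Points are shares of the regions in each bin and bars are 95% Wilson intervals. The share in neither knockout went from 11.4% at 41 to 50 tags to 0.522% at 100 to 150 tags, and in each bin below 200 tags more regions were missing in Mfp2KO only than in Bmal1KO only.

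In form, the 300 regions were stretches of a few kilobases with thin acetylation. Their wild-type tags ran from 41.2 to 356.2 with a median of 52.9, and 194 of them had fewer than 60 tags. Their lengths ran from 500 to 6926 bp with a median of 2598 bp, 138 lay between 2000 and 3000 bp, and 15 reached 5000 bp or more. Median tag density was 20.8 tags per kb, against 54.3 for the regions called in every genotype. Density moves with tags, so the classes were also compared from 41 to 82 wild-type tags, where 252 of the 300 lie. There the regions in neither knockout had a median of 20.1 tags per kb (95% order-statistic interval 19.5 to 21.2) over 2524 bp. The regions called in every genotype had 28.3 tags per kb (28.0 to 28.7) over 2094 bp. Regions missing in Mfp2KO only, at 22.4 tags per kb (21.8 to 23.2), and in Bmal1KO only, at 25.3 (24.4 to 26.0), fell between them. Within this range the regions in neither knockout still had fewer tags, with a median of 51 against 60.2 for those in every genotype, so narrower ranges were compared after these values were seen. From 41 to 50 tags, where the medians were 44.6 and 45.3 tags, density was 19.4 tags per kb (18.3 to 20.05) in neither knockout and 25.4 (24.6 to 26.1) in every genotype, over 2295 and 1798 bp. From 60 to 82 tags, with medians of 67.8 and 70.3 tags, density was 23.1 (21.1 to 23.7) and 30.3 (29.9 to 30.8) tags per kb, over 3138 and 2318 bp. From 50 to 60 tags it was 20.3 (19.2 to 21.9) and 27.4 (26.7 to 28.0). In all 3 ranges the regions in neither knockout were longer and thinner than those called in every genotype. At nearly equal tags, greater length and lower density are the same difference. Regions missing in Mfp2KO only had 21.3 tags per kb (19.8 to 22.4) from 41 to 50 tags. They had 22.6 (21.5 to 24.15) from 50 to 60 and 24.3 (22.5 to 25.3) from 60 to 82 tags. In each range this interval overlapped that of the regions in neither knockout.

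Enrichment over input was modest for many of them. The authors' fold of ChIP over input had a median of 6.11 in the 300 regions and of 9.47 in the regions called in every genotype. From 41 to 82 tags the medians were close, at 5.87 (5.65 to 6.43) and 6.395 (6.28 to 6.5), with overlapping intervals. The authors' limit was 4-fold, and 88 of the 300, or 29.3% (24.5 to 34.7), lay under 5-fold. Within 41 to 82 tags the share under 5-fold was 31.0% (25.6 to 36.9) for regions in neither knockout. It was 35.0% (30.1 to 40.3) for those missing in Bmal1KO only, 21.7% (18.5 to 25.3) for those missing in Mfp2KO only, and 19.1% (17.6 to 20.8) for those in every genotype. A fold near the limit in wild type was thus more frequent in regions without a Bmal1KO peak, with or without an Mfp2KO peak. Whether the regions missed the fold limit in the knockout lists was not tested, because a list gives tags only inside its own peaks.

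The regions also differed among themselves by input. In the 60 with the least wild-type input, 0.642 to 3.07 input tags per kb, the median region had 17.6 tags per kb over 3068 bp and stood 11.2-fold over input. In the 60 with the most input, 7.83 to 35.4 tags per kb, it had 45.7 tags per kb over 1599 bp and stood 4.74-fold over input. These last 60 held 13 of the 18 regions with 100 tags or more and 37 of the 88 regions under 5-fold. The compact regions numbered 34 at 40 tags per kb or more, with a median of 1458 bp, 58.7 tags per kb, 16.5 input tags per kb and 4.90-fold enrichment. Their median authors' peak score was 35.8, against 14 for the other 266, which had a median of 2640 bp, 19.95 tags per kb and 6.26-fold enrichment. Median tags by rising input, 60 regions at a time, were 52.2, 52.6, 51.15, 51 and 69.35, so only the regions with the most input had more tags. Tags per kb and input per kb share their length. Input is also the denominator of the fold, and the 4-fold limit demands more tags per kb where input per kb is higher. The differences in density and fold by input are thus partly fixed by definition, and the remaining part of input was not tested.

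**Figure D2:**
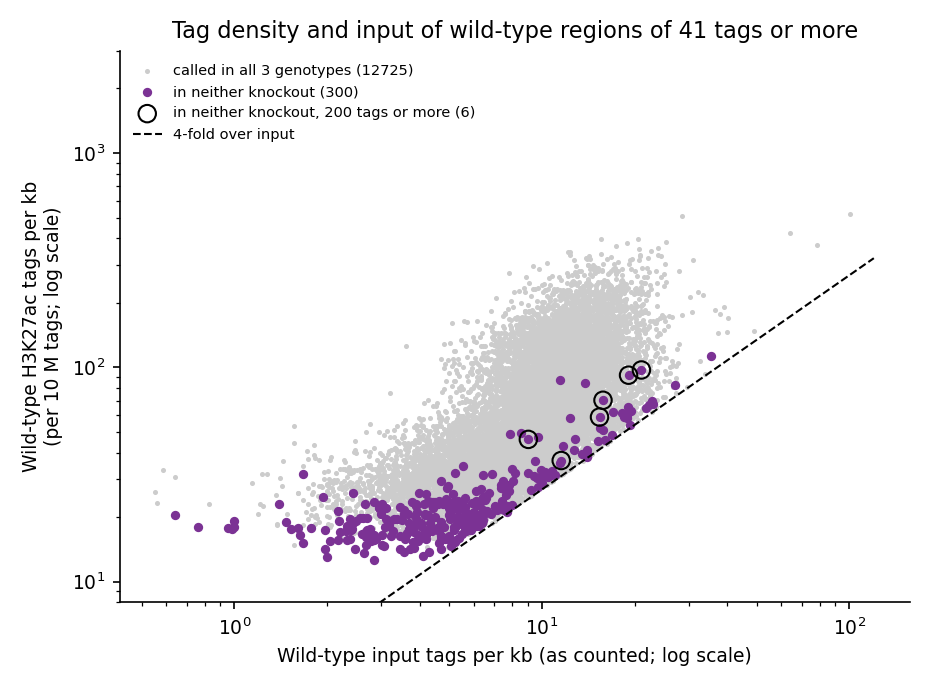
Wild-type H3K27ac tags per kb (per 10 M tags) against wild-type input tags per kb (as counted), both on log scales, for regions of 41 tags or more. Purple points are the 300 regions in neither knockout, grey points the 12725 called in every genotype, and the dashed line is 4-fold over input. The purple points follow the lower edge of the grey cloud, and the 6 circled regions of 200 tags or more lie at 9.03 to 21.1 input tags per kb.

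The strongest regions were 6 with 200 tags or more. The first, chr6:49187158-49193235, had 356.2 tags (95% Poisson interval 327 to 387, counting error only) over 6077 bp. It stood 5.66-fold over 93.5 input tags. A Bmal1KO peak lay 1970 bp away and the nearest Mfp2KO peak 46116 bp away. The second, chr3:148693153-148696335, had 309.3 tags (283 to 338) and 6.86-fold enrichment. No Bmal1KO peak lay within 2134437 bp of it and no Mfp2KO peak within 2173116 bp, while another wild-type peak lay 106851 bp away. On chr5:64959427-64962617 there were 293.2 tags at 7.14-fold, with an Mfp2KO peak 6226 bp away and a Bmal1KO peak 78361 bp away. On chr17:72172155-72178190 there were 278.3 tags over 6035 bp at 7.59-fold, and neither knockout had a peak within 179869 bp. This region was isolated in wild type too, where the nearest other peak was 184427 bp away. The longest of the 300, chr18:60880041-60886967, had 254.5 tags over 6926 bp at 4.73-fold, and chr4:21678204-21681370 had 222.3 tags at 6.6-fold. All 6 stood between 4.73-fold and 7.59-fold over input, below the median of the regions called in every genotype.

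After these 6, tags fell to 152.9 and below. On chr10:94350282-94352091 the 152.9 tags lay in 1809 bp, at 84.5 tags per kb and 9.09-fold, 8450 bp from a Bmal1KO peak. On chr3:94382075-94384873 there were 137.1 tags at 9.26-fold, with knockout peaks on both lists within 5259 bp. On chr4:134879649-134881849 there were 136.1 tags at 5.39-fold, and both knockouts had their nearest peak about equally far off, at 48177 and 48447 bp. The last 3 of the 12 strongest differed in form. The region chr11:95036441-95037835 was compact, with 121.9 tags in 1394 bp at 11.32-fold. With the same 121.9 tags, chr5:22260815-22265719 spread over 4904 bp with 9.5 input tags and 19.06-fold enrichment, 267723 bp from any knockout peak. The third, chr12:114250690-114256322, had 117.1 tags over 5632 bp at 8.70-fold.

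High fold over input was found mainly at thin regions with very few input tags. The 8 regions of 20-fold or more had between 45 and 90.2 tags and between 1.5 and 5.5 input tags, so their folds rest on small counts of input. The highest, 47.36-fold on chr7:96859497-96861835, had 47.8 tags and 1.5 input tags, and the next, 35.05-fold on chr3:106479408-106482027, had 47.2 tags and 2 input tags. Tags here are per 10 M and input tags as counted, so the authors' fold, taken at equal depth, is not their quotient. On chr2:107056745-107059748, at 28.7-fold, a Bmal1KO and an Mfp2KO peak lay 784 and 753 bp away. The best supported of the 8 by tags were chr1:60783932-60786630, with 85.5 tags at 28.23-fold, and chr1:66135411-66139338, with 90.2 tags at 24.38-fold. For both, no knockout peak lay within 115420 bp. A pair on chromosome 11, chr11:54382225-54384851 and chr11:54516479-54518991, had 46.5 and 45 tags and knockout peaks 1024 and 6575 bp away, both in Bmal1KO. The eighth, chr4:66768995-66771538, had 45 tags, 3684 bp from a Bmal1KO and 3673 bp from an Mfp2KO peak.

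The threshold of 41 tags does not divide the regions sharply. Just inside it, regions such as chr1:82335209-82337034, chr11:103235301-103236342, chr12:52236149-52238243 and chr15:81816867-81818994 had 41.2 tags each, with a Poisson interval of 31.8 to 52.5. Just outside, chr10:13698868-13701530, chr11:8638982-8640659, chr12:28706677-28709080 and chr3:84220477-84222029 had 40.8 tags each (31.5 to 52.1). Of the 300 regions, 170 had a lower counting bound of at least 41 tags. Below the threshold, 8628 wild-type regions were in neither knockout, and 300 of these had an upper bound of at least 41.

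Regions in neither knockout were found both beside knockout peaks and far from any. The nearest knockout peak lay at a median of 7455 bp (5520 to 9980), with 10710 bp for Bmal1KO and 12729 bp for Mfp2KO taken alone. Another wild-type peak lay at a median of 2660 bp (2090 to 3907), and in 212 of the 300 it was nearer than any knockout peak. In 67 regions a knockout peak lay within 2 kb, and in 132, or 44.0% (38.5 to 49.7), none lay within 10 kb. Median tags were 52.9 within 2 kb of a knockout peak, 52.2 at 2 to 10 kb, 53.2 at 10 to 50 kb, 62.4 for the 39 regions at 50 to 500 kb and 51.45 for the 10 beyond. Median fold over the same steps was 5.52, 5.95, 6.29, 6.56 and 6.97, higher at each greater distance. The last step has only 10 regions, 4 of them in a single interval of chromosome 3, and the rise was not tested. The closest was chr4:108637246-108638808, with 90.5 tags at 4.56-fold, whose edge was 23 bp from a Bmal1KO peak but 50712 bp from an Mfp2KO peak. On chr11:86620305-86627135, a thin region of 6830 bp with 111.8 tags, both knockouts had a peak close by, at 868 and 1135 bp.

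**Figure D3:**
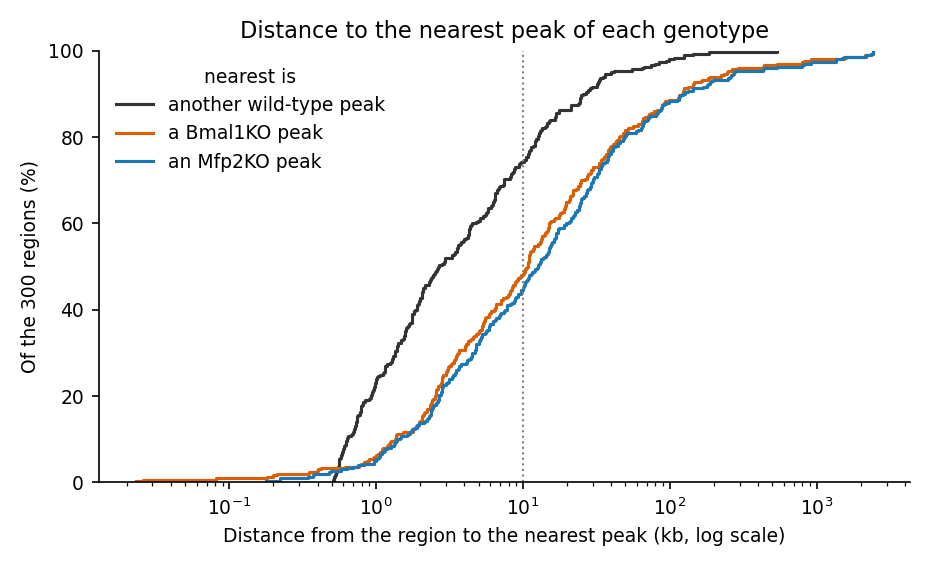
Cumulative share of the 300 regions (%) against the distance to the nearest other wild-type peak, Bmal1KO peak and Mfp2KO peak (kb, log scale), with a dotted line at 10 kb. The lines of the knockouts run together, with medians of 10710 and 12729 bp, to the right of the wild-type line, with a median of 2660 bp.

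At the far end, 31 of the 300 regions had no knockout peak within 100 kb and 6 had none within 1 Mb. Of these, 4 were on chromosome 3, in an interval of 4896 kb (chr3:146558716-151454737) without a peak of either knockout. Wild type had 18 regions there, with 708 tags over 28.2 kb. They included the second strongest region described above and chr3:149042658-149047403, with 81.4 tags over 4745 bp at 7.80-fold. The others were chr3:149116916-149120058, with 51.9 tags, and chr3:149031797-149034091, with 44 tags, the region farthest from any knockout peak at 2420646 bp. On chromosome 12 an interval of 3905 kb held 10 wild-type regions, among them chr12:66841836-66844817, with 51 tags, and chr12:66781450-66783828, with 45 tags at 19.09-fold. Next by distance came chr1:112713219-112715012, at 45.9 tags, whose nearest knockout peak was 919842 bp off. The last of the 8 farthest, chr14:5058323-5062545, had 53.2 tags spread over 4222 bp, the thinnest density of the 300 at 12.6 tags per kb.

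Such runs of regions called in 1 genotype were longest in wild type. Between neighbouring peaks of the other lists, up to 18 regions of wild type alone lay in a row, up to 5 of Bmal1KO alone and up to 6 of Mfp2KO alone. Runs of 5 or more numbered 80 in wild type, with 483 of 8924 regions, against 4 in each knockout, with 20 of 4962 and 22 of 5219 regions. The 8924 are the regions that the count of runs placed, single regions included, of the 8928 given above. The wild-type list also has the most regions of its own, so the part of list length in this difference was not tested. The lists hold no knockout input value inside such an interval, so fewer copies of the DNA and less acetylation cannot be told apart there.

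Peaks of the central region itself are left out of the counts in this paragraph. The other classes hold a knockout peak in the central region, so their stretches are not free of knockout peaks. Outside the central region, an absence of knockout peaks was more frequent for regions in neither knockout than for the other classes of 41 to 82 tags. Among the 252 regions in neither knockout with 41 to 82 tags, 38 or 15.1% (11.2 to 20.02) had no knockout peak within 50 kb. The shares with none outside the central region were 7.12% (5.27 to 9.55) for regions missing in Mfp2KO only and 6.53% (4.35 to 9.69) for those missing in Bmal1KO only. For those called in every genotype the share was 7.24% (6.25 to 8.37). Another strong region in neither knockout lay within 50 kb of 15.1% (11.2 to 20.02) of them, 7.65% (5.73 to 10.2) of those missing in Mfp2KO only, 4.75% (2.94 to 7.57) of those missing in Bmal1KO only and 3.34% (2.68 to 4.15) of those called in every genotype. With weaker regions counted too, the shares were 78.2% (72.7 to 82.8), 72.6% (68.8 to 76.1), 65.6% (60.4 to 70.5) and 62% (60 to 63.96) in the same order. The interval for regions missing in Mfp2KO only overlapped that for regions in neither knockout. Wild-type regions were also denser around the regions in neither knockout, with a mean of 5.09 within 50 kb against 4.87, 4.66 and 4.14, and with the nearest other wild-type peak at a median of 2630 bp against 6542 bp for regions in every genotype. A knockout peak can join neighbouring wild-type peaks into the central region, where they are not counted, and this cannot happen for regions in neither knockout. The part of this merging in the difference was not tested. Of the wild-type regions nearby, 47.5% were in neither knockout, against 40.2%, 31.2% and 31.1%. Retained regions were nearby too: a strong region called in every genotype lay within 50 kb of 75.4% of these 252. The intervals treat neighbouring regions as separate, although they share surroundings, and no test was made.

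**Figure D4:**
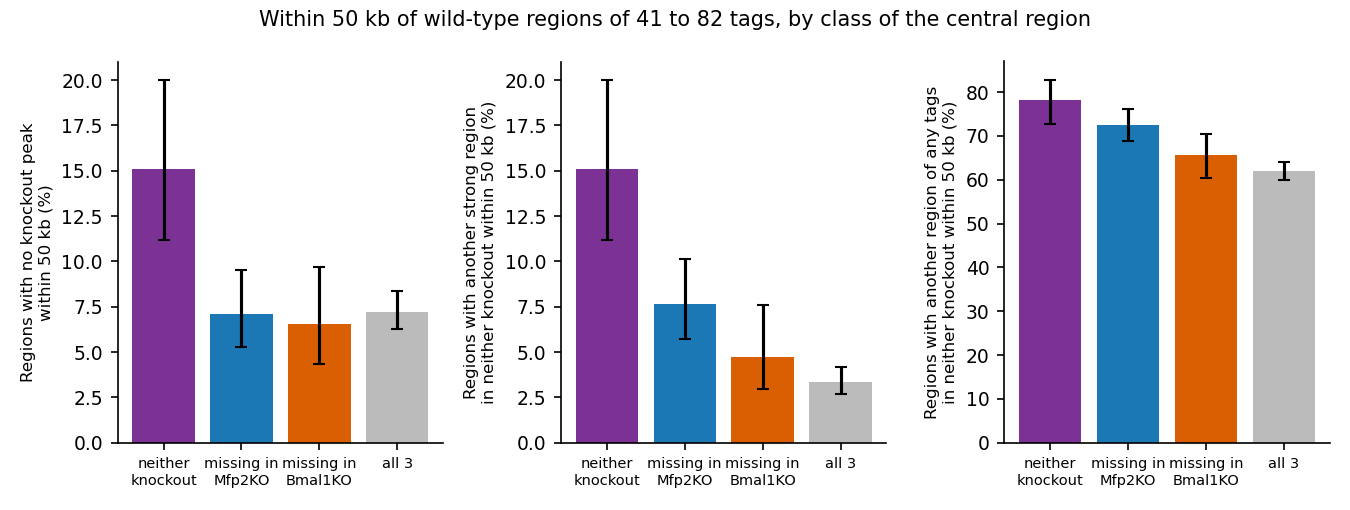
Share of wild-type regions of 41 to 82 tags (%) with no other knockout peak, with another strong region in neither knockout, and with another region of any tags in neither knockout within 50 kb, by class of the central region. Peaks of the central region itself are not counted. Bars are shares with 95% Wilson intervals. The first 2 shares were 15.1% each for regions in neither knockout and 7.24% and 3.34% for regions in every genotype.

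Regions within 50 kb of each other were joined into groups, which left 254 regions alone and put 46 into 22 groups. The group with most tags of the 2 holding 3 regions, chr6:106434422-106522231, spanned 87.8 kb. Its members had 103.5, 45.6 and 42.7 tags, at 7.15-fold, 9.68-fold and 11.55-fold. Over the whole span wild type had 15 peaks with 736 tags over 34.5 kb. Bmal1KO had 4 peaks with 88.55 tags over 3.998 kb and Mfp2KO 3 peaks with 154 tags over 4.18 kb, so part of this locus was kept in both knockouts. The other group of 3, chr1:173781761-173810229, had members of 51, 48.4 and 47.5 tags. Within its span the 6 wild-type peaks, with 174 tags in all, met no knockout peak. The nearest Bmal1KO peak lay 11010 bp and the nearest Mfp2KO peak 11079 bp from a member. Here 2 of the 3 members were under 5-fold.

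The remaining groups were pairs. On chromosome 4 the strong region of 222.3 tags was joined by one of 41.5 tags, 906 bp long at 4.25-fold. On chr16:24469372-24478064 the pair had 95 and 65.5 tags, at 11.29-fold and 6.96-fold, over a span of 8.69 kb. Its nearest Bmal1KO peak lay 6551 bp away and its nearest Mfp2KO peak 12434 bp away. On chr13:117160916-117171799 the pair had 115.6 and 43.4 tags, and the nearest Mfp2KO peak was 1350747 bp from the nearer one. On chr9:57173451-57181799 the pair had 78.2 and 73.8 tags at 4.74-fold and 5.62-fold, beside a region that both knockouts kept, 2312 bp away in Mfp2KO and 2422 bp away in Bmal1KO.

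**Figure D5:**
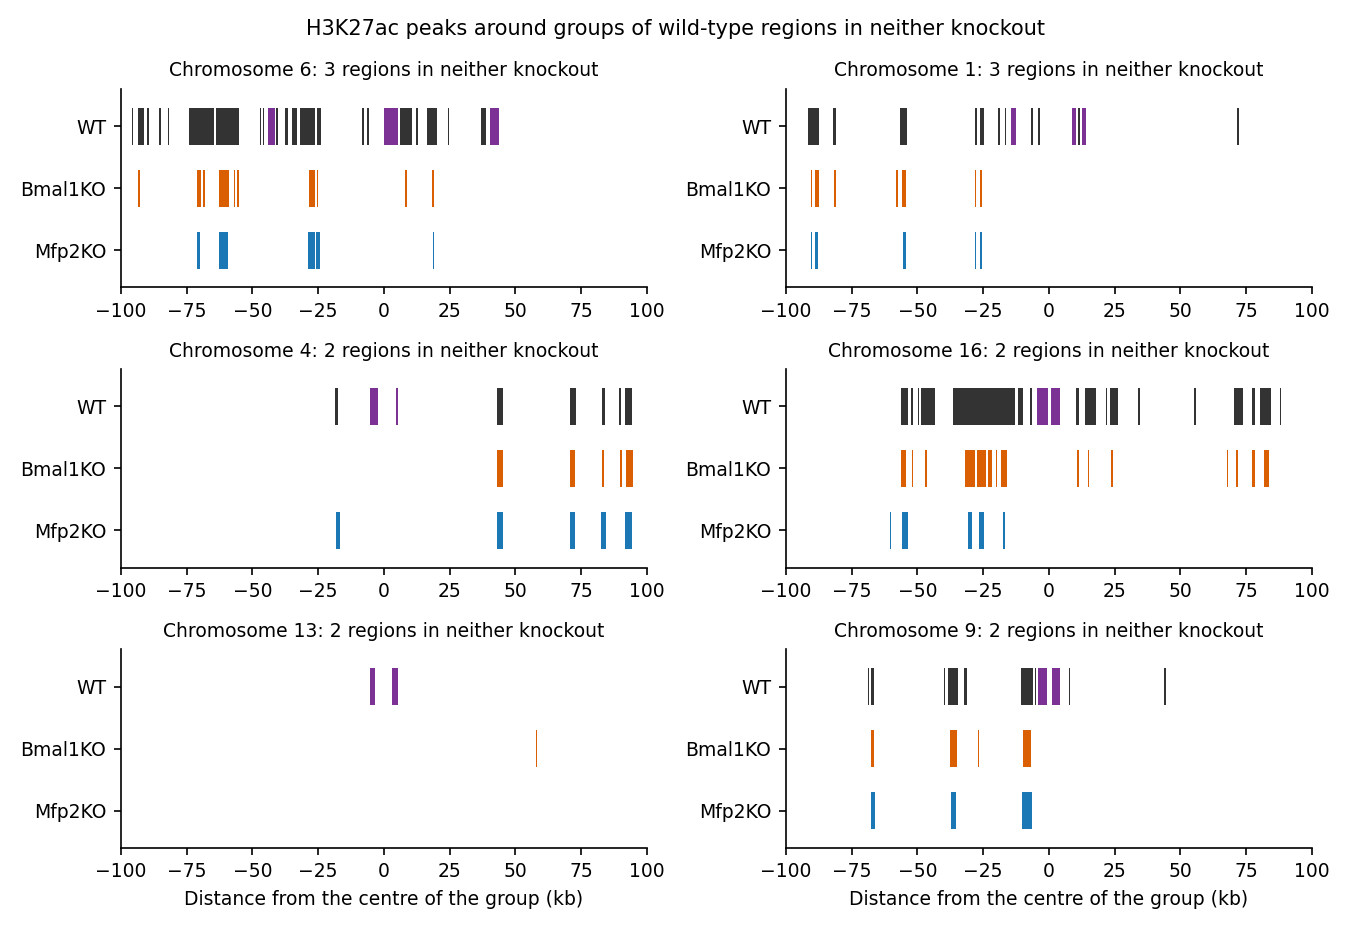
Peaks of wild type (WT), Bmal1KO and Mfp2KO within 100 kb of the centres of 6 groups of regions in neither knockout, against distance from the centre (kb). Boxes are called peaks at their true width, with the regions in neither knockout in purple. On chromosomes 1, 4, 6, 9 and 16 peaks of both knockouts lie nearby, whereas on chromosome 13 the only knockout peak drawn is 1 of Bmal1KO.

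By whole chromosome no share stood apart by its interval, although with 9 to 25 of the 300 regions on each the intervals are wide. The share of strong wild-type regions in neither knockout ran from 1.45% (0.863 to 2.41) on chromosome 7 to 2.90% (1.76 to 4.72) on chromosome 14, and all 19 intervals held the share of 2.10% over all chromosomes. In windows of 5 Mb, 6 of 25 strong regions were in neither knockout from 105 to 110 Mb of chromosome 6, or 24.0% (11.5 to 43.4). From 145 to 150 Mb of chromosome 3 it was 4 of 16, or 25% (10.2 to 49.5). Both windows are extremes of 486, a choice the intervals do not allow for.

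Strong regions in 1 list only were not limited to wild type. At 41 tags or more, 86 of 11719 Bmal1KO regions, or 0.734% (0.595 to 0.905), and 523 of 13253 Mfp2KO regions, or 3.95% (3.63 to 4.29), were in neither other list. With the minimum set at each list's own median, wild type had a share of 2.06%, Bmal1KO one of 0.905% and Mfp2KO one of 2.01%. The share in wild type was thus close to that in Mfp2KO on this scale, and above that in Bmal1KO. Form differed as well. At 41 tags or more the regions of wild type alone had a median of 2598 bp and 20.8 tags per kb. Those of Bmal1KO alone had 1486 bp and 42.7 tags per kb, and those of Mfp2KO alone 1423 bp and 47.2 tags per kb.

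Absence from a list is not absence of the mark, and the lists give no knockout tags at the 300 regions themselves. Where a comparable wild-type region of 41 to 82 tags was called in every genotype, the Bmal1KO peaks had a median of 37.5 tags (quartiles 22.4 to 58.6) and the Mfp2KO peaks 53.2 (22.2 to 150), against 60.2 in wild type. Where the region was missing in Mfp2KO only, the Bmal1KO peaks had a median of 21.7 tags over 1090 bp, and 258 of 562 had fewer than 20 tags. Where it was missing in Bmal1KO only, the Mfp2KO peaks had a median of 41.2 tags over 1424 bp, and 111 of 337 had fewer than 20. Kept regions therefore reached down to knockout tags well below 41.

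Knockout input was examined near the regions, over regions called in every genotype within 500 kb, of which at least 3 were needed. For 268 of the 300, input per kb relative to wild type, divided by the value over all such regions, had a median of 0.980 in Bmal1KO (quartiles 0.905 to 1.06) and 0.986 in Mfp2KO (0.895 to 1.14). Around the regions called in every genotype the medians were 0.978 and 0.952. Near chr6:49187158-49193235 the values were 0.937 and 0.877, and near chr17:72172155-72178190 they were 1.26 and 1.40. Relative Mfp2KO input was under 0.6 near 7 of the 268 regions, or 2.61% (1.27 to 5.29). The share was 0.541% (0.425 to 0.689) near regions called in every genotype, 0.823% (0.378 to 1.78) near those missing in Mfp2KO only and 1.39% (0.640 to 3.004) near those missing in Bmal1KO only. In Bmal1KO none of the 268 was under 0.6. Regions near each other share these values, and the part of low input in the missing peaks was not tested. No value could be given near the second strongest region on chromosome 3, and a loss of DNA shorter than the distance between called regions would not show in these values.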

How the data were processed

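H3K27ac ChIP-seq and input libraries of wild-type, Bmal1KO and Mfp2KO RAW264.7 cells were analysed from 3 peak lists, 1 per ChIP library. Per the file headers, each list is the output of HOMER findPeaks in its histone mode, which stitched windows of 500 bp, counted at most 1 tag per position and required 4-fold enrichment over the genotype's own input. The submitters' processing notes name build mm39 and, with no role, HOMER 5.1, MACS3 3.0.3, Picard 3.4.0, SAMtools 1.23, BWA 0.7.19-r1273 and fastp 1.0.1. No source used here says whether duplicate reads were removed. Tags per region are the authors' signal after scaling each library to 10 M tags. Input tags are a second deposited signal: raw for wild type and Mfp2KO, but brought to ChIP depth for Bmal1KO. The deposited fold is a ratio, ChIP over input at equal depth, and the deposited score is the caller's own value. The deposited p-value over input was not used further.

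Lists were read and merged with pandas 2.3.3 in Python 3.11.15, and intervals came from SciPy 1.17.1 and statsmodels 0.14.6. The merging was tested on simulated lists. Shares have 95% Wilson intervals, medians order-statistic intervals and tags Poisson intervals. Regions named are the 12 with most tags, the 8 of highest fold, the 8 farthest from a knockout peak, 4 on each side of the threshold and 6 groups; the others named (the closest to a knockout peak and a thin region on chromosome 11) were chosen after their values were seen. The set of regions and the comparisons were chosen with earlier results of these data known. Planned counts at promoters, near listed genes and of motifs were not made, since the gene tables used here are of another build.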

Additional observations from a re-analysis of the deposited data

How the results depend on the processing

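Of 48 alternative values, 29 stayed within 1.5 times the count or within the interval of the share or median, and 19 moved. The tag minimum moved most. With a minimum of 30, 60 and 82 tags there were 647, 106 and 48 regions in neither knockout instead of 300. They made up 4.08%, 0.859% and 0.444% of the wild-type regions above the minimum, with medians of 19.4, 23.6 and 34.2 tags per kb. The median fold at a minimum of 82 was 7.11, and the share without a knockout peak within 10 kb was 50.9% at 60 and 56.3% at 82. With all lists limited to 5-fold or more there were 449 regions, or 3.403% of the strong regions, with a median of 24.9 tags per kb, and 212 of them were among the 300. The count of 449 was only just within 1.5 times 300 and so is among the 29 that stayed, although its share and density moved. With only the wild-type list limited to 5-fold or more, 212 remained, or 1.61%, with a median of 7.23-fold. Merging peaks within 1000 bp gave 287 regions, 211 of them with the same start and end as a region of the 300. Of the 300, 70 had another wild-type peak within 1000 bp, and joining changes a region's start or end. Of the 287, 53.3% had no knockout peak within 10 kb. The 29 of the 300 with a knockout peak within 1000 bp do not count at this setting, and their part in that share was not tested. Counting 1 knockout at a time among the 300, the share with no peak within 10 kb was 51.7% for Bmal1KO and 55.3% for Mfp2KO. Merging within 500 bp (284 regions), equal numbers of peaks per list (328), chromosome X added (306) and requiring knockout peaks to cover 10% of the wild-type region (319) moved no value they gave. Counts at promoters under other distances were not run, since no gene annotation of the lists' build was used here. No paired analysis was possible because each genotype has 1 ChIP library. Depth limits the regions near the threshold, whose counting interval spans it.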
